A study of Homo sapiens with 18 samples.

Results

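TFF1, TFF3, GREB1, PGR, PDZK1, CA12, IGFBP4, RARA, CXCL12 and ADCY9 are 10 genes long known to be induced by estrogen in breast cancer cells. They were chosen by name from the 23500 rows with values in the RNA-seq table, through the RefSeq identifiers of each row, and each matched 1 row. Expression was read in 2 ZR751shMLL3 and 2 ZR751shLucif libraries, and peaks of ERα, H3K4me1 and SP1 were read within 100 kb of each gene body in 2 lists per cell line. ZR751 (ZR75-1) is a widely used cell line from an ER+ breast cancer. The ZR751shMLL3 cells carried a short hairpin RNA against MLL3 (KMT2C), and ZR751shLucif cells carried a control hairpin against luciferase. Both were made by stable lentiviral transduction and sorting for GFP, with a single hairpin sequence against MLL3, and both were kept at early passage in RPMI with serum and insulin. No arm with or without added estrogen was part of these samples, so the values describe the genes at steady state in serum. The study calls the replicates biological but does not say that they came from separate transductions.

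Estrogen binds ERα, the product of ESR1, and the receptor then binds DNA at estrogen response elements, which are palindromes of 2 half-sites set 3 bases apart. From promoters and from distant enhancers it recruits coactivators, among them complexes that hold MLL3 and place the monomethyl mark of enhancers on H3K4. TFF1 and TFF3 encode secreted trefoil peptides, GREB1 a cofactor of the receptor, PGR the progesterone receptor and RARA a retinoic acid receptor. PDZK1 is a scaffold protein, CA12 a membrane carbonic anhydrase, IGFBP4 a secreted binding protein of insulin-like growth factors, CXCL12 a chemokine and ADCY9 an adenylyl cyclase.

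Most of the strongest ERα sites beside these genes held a recognizable estrogen response element, as did most strong sites shared by every list. Peaks were ranked within their own list by the deposited signal, so that rank 1 is the strongest, and a site was taken as a summit with peaks of other lists within 500 bp. Across the genome, 128 sites were of rank 5000 or better in all 4 ERα lists, counted from the peaks of ZR751shLucif replicate 2, and 6 of them lay within 100 kb of GREB1, RARA, IGFBP4 or ADCY9. Such a site lay near 4 of the 10 genes, beside 1.51% of the genes tested. The element GGTCANNNTGACC, its own reverse complement, was searched within 100 bp on each side of the summit. It was found with at most 1 mismatch at 5 of the 6 sites, beside 81.25% of the 128. The stretches below are GRCh37 (hg19) plus-strand sequence, with the element in capitals, and are shown because they carry the elements under the genes' best-shared peaks. The last line is the shared PGR site, which missed rank 5000 in 1 list.
GREB1, chr2:11638835-11638887: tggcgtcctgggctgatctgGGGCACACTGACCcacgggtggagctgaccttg
GREB1, chr2:11672640-11672692: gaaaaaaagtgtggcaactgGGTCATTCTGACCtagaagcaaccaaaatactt
RARA, chr17:38478724-38478776: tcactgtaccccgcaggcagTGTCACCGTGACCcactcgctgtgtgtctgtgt
IGFBP4, chr17:38605100-38605152: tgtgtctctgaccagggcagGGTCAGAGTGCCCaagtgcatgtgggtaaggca
ADCY9, chr16:4202482-4202534: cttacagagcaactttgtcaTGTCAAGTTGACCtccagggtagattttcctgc
PGR, chr11:100904934-100904962: aacaataaGGTCAGCATGACAtacagcaa

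Only the element at chr2:11672640-11672692 in GREB1 matched without mismatch. Counted from 1 at the 5′ end of the element, with the consensus base first, the other GREB1 element had T3G, those of RARA and ADCY9 both had G1T, that of IGFBP4 had A11C and that of PGR had C13A. Of the 5000 top-ranked peaks of each list (5202 with ties in ZR751shLucif replicate 1), the element with at most 1 mismatch lay at 3.31 and 11.3% of the ZR751shLucif peaks, in replicate order, and at 9.32 and 4.28% of the ZR751shMLL3 peaks. At positions 1000 bp away it lay at 0.231 to 0.48%. No site of the 10 genes held the GC box GGGCGG, on either strand, in the same window. It was also rare over the top-ranked peaks, at 1.42 and 1.76% in ZR751shLucif and 1.44 and 0.82% in ZR751shMLL3. A match describes the sequence and does not show what was bound.

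The targeted gene was read first. KMT2C (MLL3) was measured at 2.34 and 6.77 FPKM, which are fragments scaled for transcript length and library size, in the ZR751shLucif libraries, against 1.07 and 2.69 FPKM in the ZR751shMLL3 libraries. The mean was lower with the hairpin, but the cell lines overlapped, and the log2 fold change of -1.02 ± 0.55 (SE) had an adjusted p of 0.633 with limma. Fold changes here compare log2(FPKM + 0.5), ZR751shMLL3 minus ZR751shLucif, and understate the change of low genes. The receptor gene ESR1 was measured at 11.2 and 14.2 FPKM in the ZR751shLucif libraries, against 12.1 and 10.8 in the ZR751shMLL3 libraries, which gave -0.14 ± 0.27 on the log2 scale (SE; limma adjusted p = 0.873). ESR2, the other estrogen receptor gene, was at most 0.065 FPKM in any library. FOXA1, a pioneer factor that opens chromatin for ERα, was measured at 173 and 102 FPKM in the ZR751shLucif libraries, against 76.8 and 93.7 in the ZR751shMLL3 libraries, so its groups did not overlap, but its log2 fold change of -0.65 had an adjusted p of 0.633. GATA3 and TFAP2C, further factors that act with ERα, had log2 fold changes of 0.42 and 0.35, and their groups overlapped.

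The libraries stood apart in ways that touch these genes. Over the 11134 genes tested, the correlation of log2 values was 0.900 to 0.907 between ZR751shLucif replicate 1 and the rest, and 0.947 to 0.969 among the rest. The 8 luminal epithelial markers summed to 12535 and 4944 FPKM in ZR751shLucif and to 10896 and 9413 in ZR751shMLL3, so ZR751shLucif replicate 2 was lowest. Sums ranged from 2.59 to 4.56 FPKM over the 6 basal or myoepithelial markers, 13.2 to 18.0 over 5 fibroblast markers, most of it COL1A1, 2.13 to 5.16 over 5 leukocyte markers and 0.141 to 0.306 over 4 endothelial markers. Of these markers, KRT5, KRT14, TP63, PTPRC, CD3E, PECAM1 and CDH5 were at or near 0. Others were not, with ACTA2 at 1.65 to 3.71 FPKM, MYLK at 0.43 to 0.82, LYZ at 0.98 to 4.85 and CD14 at 0.27 to 1.41.

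The 10 genes spanned a wide range of levels, with TFF1 at the top and CXCL12 at the bottom. FPKM are scaled for transcript length, so levels can be set beside each other. The means over the 4 libraries were 915 for TFF1, 266 for IGFBP4, 202 for TFF3, 128 for CA12, 65.5 for RARA, 44.2 for GREB1, 12.8 for PGR, 10.4 for ADCY9, 5.48 for PDZK1 and 1.17 for CXCL12. TFF1 stood at the 99.2nd percentile of the genes tested and PDZK1 at the 24.5th. Between neighbours in this order, the ranges over the 4 libraries were apart at 3 steps, from CA12 to RARA, from GREB1 to PGR and from PDZK1 to CXCL12. At the other 6 steps the ranges over the 4 libraries overlapped.

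**Figure D1:**
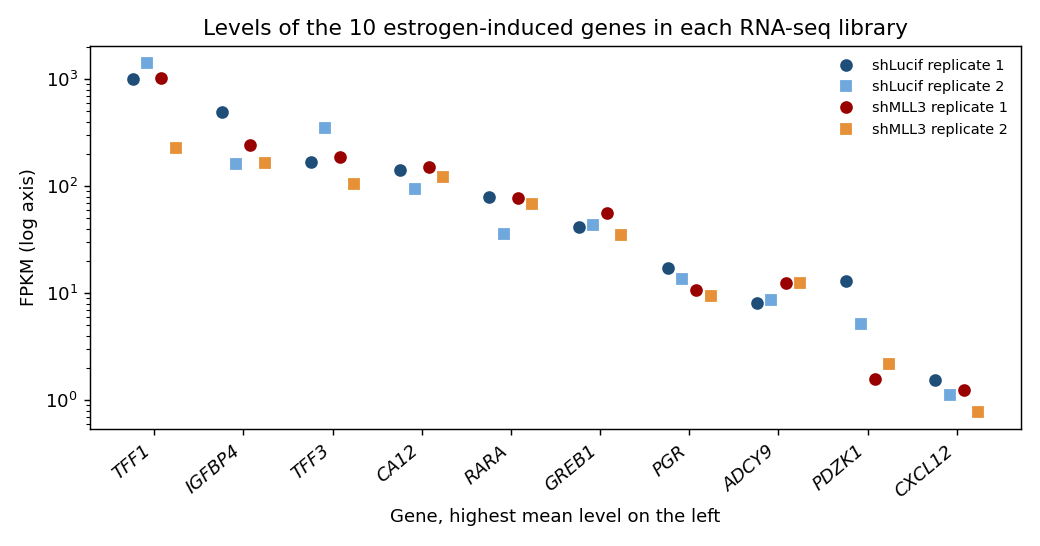
FPKM of each gene on a log axis, with 1 point per RNA-seq library (blue, ZR751shLucif; red and orange, ZR751shMLL3; circles, replicate 1; squares, replicate 2). For TFF1, 3 libraries lie between 998 and 1406 FPKM and ZR751shMLL3 replicate 2 lies at 226.

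No gene of the 10 passed the test for a change with the MLL3 hairpin. The 9 with a mean log2(FPKM + 0.5) above 1 were tested, and CXCL12 was not. At an adjusted p of 0.05, limma called 0 of the 9, beside 0.00898% of all genes tested, which is 1 gene. At an unadjusted p of 0.05 it marked 1 of the 9, PDZK1, beside 8.21% of all. Log2 fold changes were above 0 for 4 genes and below 0 for 5, beside 59.1% below 0 over all genes tested, with a median of -0.50 beside -0.10 over all genes tested, and the median was 0.042 without ZR751shLucif replicate 1. Both ZR751shMLL3 libraries lay below both ZR751shLucif libraries for PGR and PDZK1, beside 25.3% of all genes tested, and above them for ADCY9, beside 17.6%. In bulk RNA, fewer cells that express a gene and less RNA per cell cannot be told apart.

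**Figure D2:**
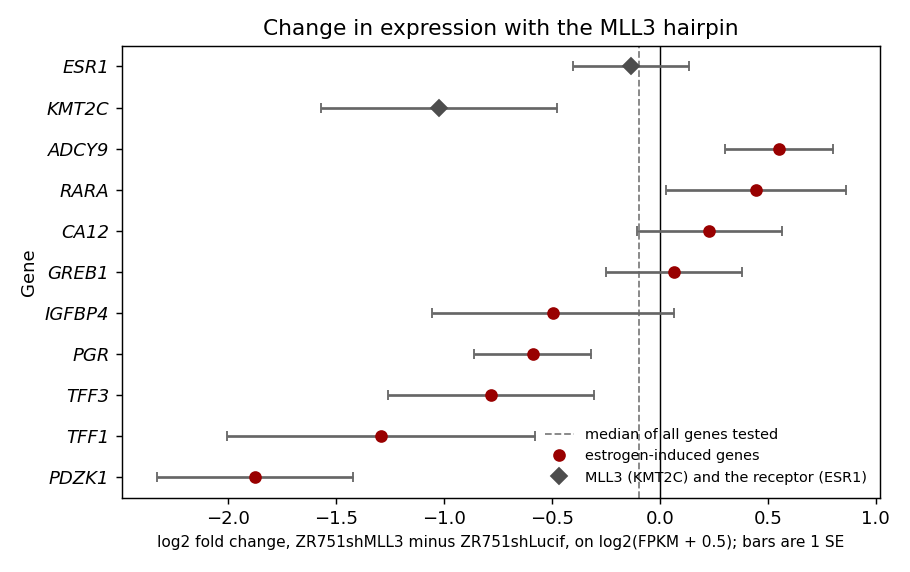
Log2 fold change (ZR751shMLL3 minus ZR751shLucif, on log2(FPKM + 0.5)) of the 9 genes tested, in red, and of KMT2C and ESR1, in grey; bars are 1 SE from limma and the dashed line is the median of all genes tested, -0.10. The values run from -1.88 for PDZK1 to 0.55 for ADCY9, and no adjusted p passed 0.05.

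The trefoil genes were lowest in ZR751shMLL3 replicate 2. TFF1, on the minus strand at chr21:43782391-43786644, was measured at 998 and 1406 FPKM in the ZR751shLucif libraries, against 1029 and 226 in the ZR751shMLL3 libraries. The 2 ZR751shMLL3 libraries thus differed from each other by 2.18 on the log2 scale, more than the fold change between cell lines, and replicate 1 lay among the control libraries. TFF1 had a log2 fold change of -1.29 ± 0.71 (SE; limma adjusted p = 0.633), which was -0.20 without ZR751shMLL3 replicate 2 and -2.39 without ZR751shMLL3 replicate 1. TFF3, at chr21:43731777-43735519, was measured at 166 and 349 FPKM in the ZR751shLucif libraries, against 187 and 104 in the ZR751shMLL3 libraries. It overlapped between cell lines too, which gave -0.78 ± 0.48 on the log2 scale (SE; limma adjusted p = 0.643) and ranged from -1.31 to -0.25 without each library in turn.

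The genes tested with a pattern over the 4 libraries most like that of TFF1 were TXNIP, ARRDC4, SERPINA3, SERPINA6 and TM6SF1, by the distance between centred log2 values, from 0.65 for TXNIP to 0.81 for TM6SF1. TXNIP, a thioredoxin-binding protein, was measured at 169, 279, 197 and 25.1 FPKM, in the order ZR751shLucif 1 and 2, ZR751shMLL3 1 and 2. Like TFF1 it had 1 low value, in ZR751shMLL3 replicate 2. The 5 nearest to the median pattern of the 9 genes were CWC25, LACTB, LRRC27, UBALD2 and MID1IP1, at distances of 0.14 to 0.17. That median pattern was highest in ZR751shLucif replicate 1, at 0.35, and lowest in ZR751shMLL3 replicate 2, at -0.39.

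The nuclear receptor genes differed in direction. PGR, on the minus strand at chr11:100900355-101000544, was measured at 17.3 and 13.6 FPKM in the ZR751shLucif libraries, against 10.8 and 9.33 in the ZR751shMLL3 libraries. Both hairpin libraries lay below both controls, and the log2 fold change of -0.59 ± 0.27 (SE; limma adjusted p = 0.625) kept its sign without each library in turn, from -0.76 to -0.42, and was -0.36 with the trend on GC content removed. RARA, at chr17:38465432-38513895, was measured at 79.8 and 35.8 FPKM in the ZR751shLucif libraries, against 77.6 and 68.7 in the ZR751shMLL3 libraries. Its log2 fold change of 0.44 ± 0.42 (limma adjusted p = 0.738) rested on the low value of ZR751shLucif replicate 2, and was -0.13 without that library and 0.099 with the trend on GC content removed. GREB1, the receptor's cofactor, at chr2:11622467-11782914, was measured at 42.0 and 43.3 FPKM in the ZR751shLucif libraries, against 56.3 and 35.3 in the ZR751shMLL3 libraries. The control libraries lay between the hairpin libraries, and the log2 fold change was 0.06 ± 0.32 (limma adjusted p = 0.956), or -0.27 without ZR751shMLL3 replicate 1 and -0.047 with the trend on GC content removed.

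PDZK1 had the largest fold change of the 9 genes tested. At chr1:145726918-145764207, it was measured at 13.1 and 5.10 FPKM in the ZR751shLucif libraries, against 1.59 and 2.18 in the ZR751shMLL3 libraries. Both hairpin libraries lay below both controls, with a log2 fold change of -1.88 ± 0.45 (SE), an unadjusted p of 0.00534 and an adjusted p of 0.447 with limma. Without ZR751shLucif replicate 2 it was -2.52 and passed the test (limma adjusted p = 0.00363), with that cell line's lone library taken to vary like the other group, and 1994 genes passed in that fit. The annotation holds a pseudogene, PDZK1P1, on the same chromosome, and how reads shared with it were counted is not given in the sources used here.

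ADCY9 was the gene with both hairpin libraries above both controls. On the minus strand at chr16:4003388-4166443, it was measured at 8.14 and 8.61 FPKM in ZR751shLucif against 12.5 FPKM in each ZR751shMLL3 library. The log2 fold change was 0.55 ± 0.25 (SE; limma adjusted p = 0.625), and from 0.51 to 0.59 without each library in turn. With the trend on GC content removed from each library it was 0.30.

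IGFBP4 differed most between the control libraries, and CA12 overlapped between the cell lines. CA12, on the minus strand at chr15:63613577-63674045, was measured at 143 and 94.0 FPKM in the ZR751shLucif libraries, against 152 and 121 in the ZR751shMLL3 libraries, which gave 0.23 ± 0.34 on the log2 scale (SE; limma adjusted p = 0.827) and -0.074 without ZR751shLucif replicate 2. IGFBP4, at chr17:38599702-38613977, was measured at 495 and 161 FPKM in the ZR751shLucif libraries, against 243 and 165 in the ZR751shMLL3 libraries. Its control libraries differed by 1.61 on the log2 scale, and its log2 fold change of -0.50 ± 0.56 (limma adjusted p = 0.777) was 0.31 without ZR751shLucif replicate 1 and -0.85 with the trend on GC content removed. Without ZR751shLucif replicate 2 it was -1.30, again with replicate 1, the library least correlated with the rest, as the only control. CXCL12, on the minus strand at chr10:44865613-44881941, was measured at 1.53 and 1.12 FPKM in the ZR751shLucif libraries, against 1.26 and 0.78 in the ZR751shMLL3 libraries, and its groups overlapped.

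A further 33 estrogen-induced genes did not share a direction. Of these, 31 had values and 27 were tested, with log2 fold changes above 0 for 15 and below 0 for 12 and a median of 0.11, beside 59.1% below 0 and a median of -0.10 over all genes tested. With limma, 0 of the 27 had an adjusted p under 0.05, beside 0.00898% of all genes tested, and 6 had an unadjusted p under 0.05, beside 8.21%. The median was 0.093 without ZR751shLucif replicate 2 and 0.047 without ZR751shLucif replicate 1. Both ZR751shMLL3 libraries lay above both controls for 5 of the 27, beside 17.6% of all genes tested, and below them for 5, beside 25.3%. The largest values above 0 were those of EGR3 (2.17), HSPB8 (1.34), SLC7A5 (1.02) and WISP2 (0.93). EGR3, an immediate-early transcription factor, was measured at 7.15 and 2.27 FPKM in the ZR751shLucif libraries, against 16.7 and 24.5 in the ZR751shMLL3 libraries, and SLC7A5, an amino acid transporter, at 262 and 405.1 against 680 and 644. The largest below 0 were those of AGR2 (-1.27), MYB (-0.93), TPD52L1 (-0.93) and RERG (-0.75). AGR2, a disulfide isomerase of secretory cells, was measured at 1378 and 810 FPKM in the ZR751shLucif libraries, against 516 and 372 in the ZR751shMLL3 libraries. MYB, a transcription factor of ER+ cells, was measured at 8.82 and 9.51 and at 4.32 and 4.84.

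Some of the genes had a very strong ERα peak in every list and others had none in any. A peak of rank 1000 or better lay within 100 kb of GREB1, PGR, IGFBP4, RARA and ADCY9 in all 4 lists, which is 5 of the 10 genes beside 1.22% of the genes tested and 0.883% of all annotated genes. With the limit at 5000 the same count was 5, beside 4.52% of the genes tested. Per list, 5 and 7 of the 10 had a peak of rank 5000 or better in ZR751shLucif replicates 1 and 2, beside 31.7 and 25.8% of the genes tested. In ZR751shMLL3 it was 7 and 6, beside 21.5 and 27.8%. The genes that varied were PDZK1 and CA12, and TFF1, TFF3 and CXCL12 had no such peak in any list.

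**Figure D3:**
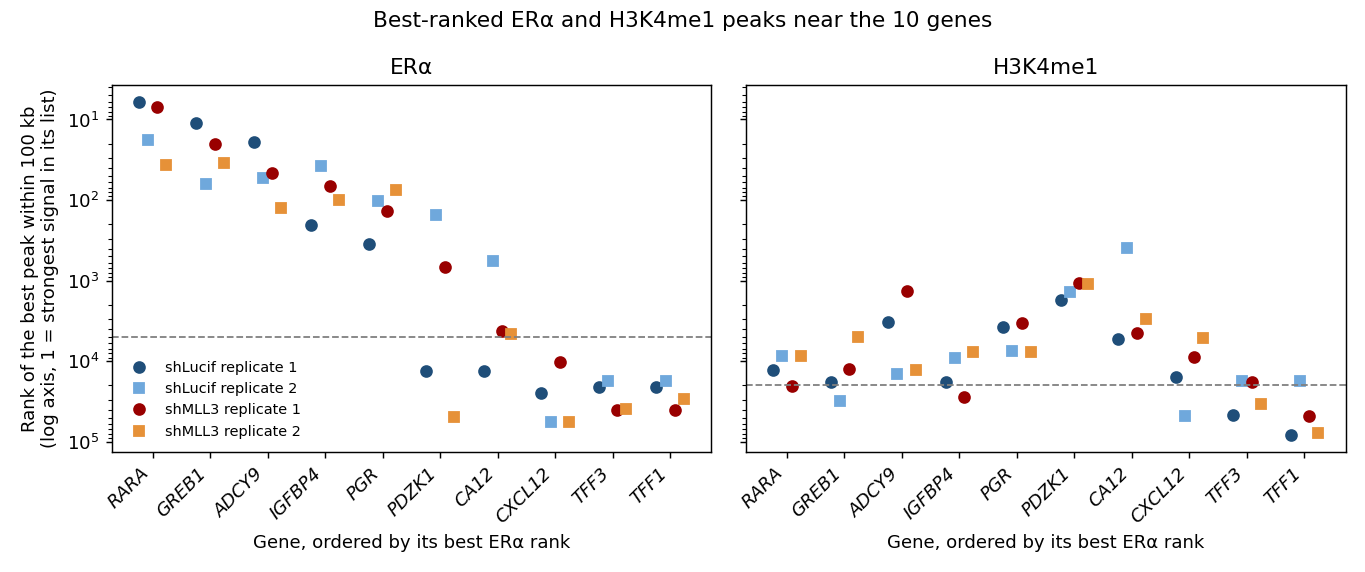
Rank of the best ERα peak (left) and H3K4me1 peak (right) within 100 kb of each gene, on log axes with strong peaks at the top, 1 point per list; dashed lines mark the limits of 5000 and 20000. RARA, GREB1, ADCY9, IGFBP4 and PGR have an ERα peak between rank 6 and rank 355 in every list, and TFF1 and TFF3 none better than 17801.

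RARA had the best-ranked ERα site of the 10 genes in 3 of the 4 lists, and in ZR751shMLL3 replicate 2 the first GREB1 site ranked better. Its summit at chr17:38478718, in an intron and 525 bp upstream of the nearest annotated transcript start, ranked 6 and 18 in ZR751shLucif and 7 and 37 in ZR751shMLL3. GREB1 had 3 intronic sites in the top 5000 of every list. The first, 16379 bp downstream of the gene start, ranked 11 and 64 in ZR751shLucif and 20 and 35 in ZR751shMLL3. The second, which holds the exact element 1495 bp upstream of an internal transcript start, ranked 101 and 227 and then 54 and 41. The last, 113 bp upstream of another transcript start and without the element, ranked 610 and 201 and then 253 and 423. For RARA and for each GREB1 site the cell lines overlapped or, at the second GREB1 site, the ZR751shMLL3 ranks were better.

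IGFBP4 and ADCY9 each had a single site shared by every list. The IGFBP4 site, in an intron 5411 bp downstream of the start, ranked 204 and 38 in ZR751shLucif and 67 and 101 in ZR751shMLL3. It also falls in the window of RARA, since those genes lie 85807 bp apart. The ADCY9 site, between genes and 36041 bp upstream of the start, ranked 19 and 53 and then 46 and 125. At both the cell lines overlapped.

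PGR had its best shared ERα site near its 3′ end, 95548 bp downstream of its start, where the annotation gives an untranslated part of a PGR exon. It ranked 20730 and 102 in ZR751shLucif and 135 and 74 in ZR751shMLL3, so ZR751shLucif replicate 1 stood apart. In that list the best PGR peak, of rank 355, lay 92325 bp downstream of the start and had no match in the other lists. By their best peaks within 100 kb, PGR ranked 355 and 102 in ZR751shLucif and 135 and 74 in ZR751shMLL3, and the groups overlapped.

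PDZK1 and CA12 had strong ERα peaks in some lists only. At PDZK1 a peak 271 bp upstream of the start ranked 153 in ZR751shLucif replicate 2, and no other list had a peak within 500 bp of it, ZR751shLucif replicate 1 included. The best PDZK1 peak of ZR751shMLL3 replicate 1, of rank 670, lay 77458 bp upstream in an intron of RNF115. Over the window the best ranks were 13090 and 153 in ZR751shLucif and 670 and 49488 in ZR751shMLL3, which overlap widely. Within 20 kb of the gene body, which leaves out the RNF115 peak, both ZR751shMLL3 lists ranked worse than both ZR751shLucif lists. The share of all genes tested that did so was not counted at 20 kb, and within 100 kb it was 18.5%. The difference in mean log10 rank was 1.62 there, beside 0.61 within 100 kb. Its exact permutation p was 0.333, the smallest that 2 lists against 2 can give. CA12 had a site between genes, 6029 bp upstream of its start, of rank 566 in ZR751shLucif replicate 2 and 5008 in ZR751shMLL3 replicate 1 and with no peak in the other lists. It is shown for the element that it holds, with T3A.
CA12, chr15:63680104-63680156: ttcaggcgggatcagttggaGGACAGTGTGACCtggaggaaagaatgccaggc

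**Figure D4:**
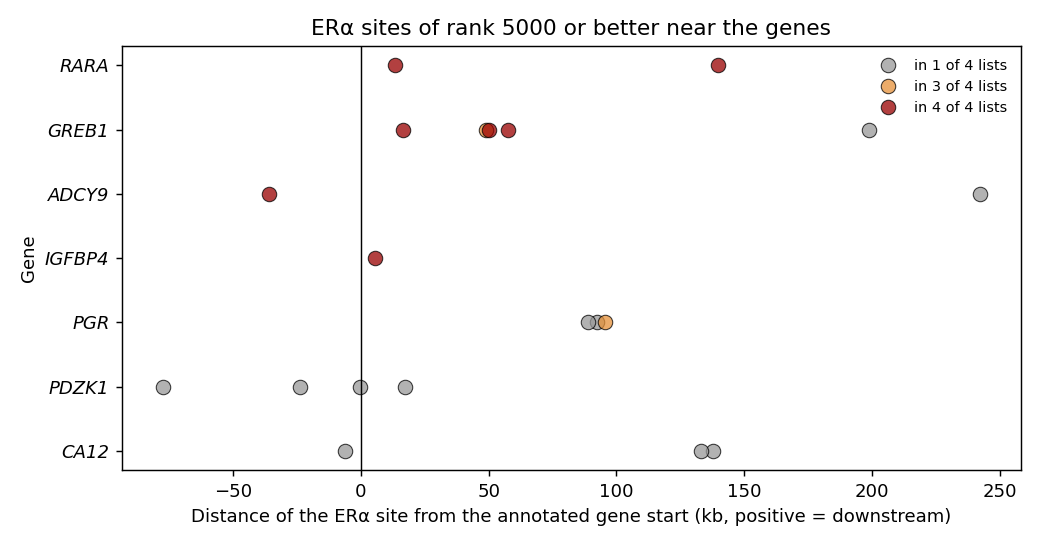
Distance in kb from each gene's annotated start to every ERα site of rank 5000 or better in at least 1 list, coloured by how many of the 4 lists hold the site at that rank. Sites in all 4 lists lie at GREB1, RARA, IGFBP4 and ADCY9; the point of RARA farthest to the right is the IGFBP4 site.

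TFF1 and TFF3, both among the most highly expressed of the genes, had only weakly ranked ERα peaks. They lie 46872 bp apart and share a site in an intron of TMPRSS3, 9980 bp upstream of TFF1, which ranked 20685 and 17801 in ZR751shLucif and 40227 in ZR751shMLL3 replicate 1. ZR751shMLL3 replicate 2 had no peak there, and its best peaks ranked 29041 for TFF1 and 39042 for TFF3 at other places. No element with at most 1 mismatch lay at the shared site. Within 100 kb, only TFF1 and TFF3 ranked worse in both ZR751shMLL3 lists than in both ZR751shLucif lists, beside 18.5% of the genes tested. The differences in mean log10 rank were 0.25 and 0.31, each with an exact permutation p of 0.333, the smallest that 2 lists against 2 can give. They share that site, so they are not independent of each other. With each rank taken as a percent of its list's length, 156481 peaks in ZR751shLucif replicate 1 and 299403 to 300000 in the other lists, the differences fell to 0.11 and 0.17, and the cell lines overlapped at both genes (exact permutation p = 0.667). By the library names, ZR751shLucif replicate 2 came from another series of ERα libraries than the other 3, and without it the differences were 0.22 and 0.28. CXCL12 had best ranks of 24582 and 56622 in ZR751shLucif and of 10179 and 56718 in ZR751shMLL3, at 4 different places.

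Over the 10 genes, the best ERα rank was worse on average in ZR751shMLL3 for 6, with a median difference in log10 rank of 0.20, beside 0.09 over the 10444 genes tested with a peak in every list. With ranks as a percent of list length these medians were 0.056 and -0.054. No gene of the 10 was then worse in both ZR751shMLL3 lists, beside 12.7% of the genes tested, or better in both, beside 17.9%. Differences ranged from -0.28 for PGR to 0.61 for PDZK1, whose lists differed within each cell line by an SD of 1.37 and 1.32. The best peak within 100 kb held the element with at most 1 mismatch for 4 and 6 of the 10 genes in ZR751shLucif and for 5 and 3 in ZR751shMLL3. Over the 5000 top-ranked peaks it lay at 3.31 and 11.3% in ZR751shLucif and at 9.32 and 4.28% in ZR751shMLL3. These shares are not matched for rank. Some best peaks of the 10 genes ranked beyond 5000, and others were among the strongest of their list. Of the 128 sites of rank 5000 or better in all 4 lists, 81.25% held the element.

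H3K4me1, the enhancer mark that MLL3 can place, was near most of the genes in both cell lines. A peak of rank 20000 or better lay within 100 kb of 8 and 8 of the 10 genes in ZR751shLucif, beside 51.1 and 53.2% of the genes tested, and of 7 and 8 in ZR751shMLL3, beside 60.0 and 53.3%. In all 4 lists it did so for 4 genes, PGR, PDZK1, CA12 and ADCY9, beside 30.4%. PDZK1 was the best marked over the 4 lists together, with ranks of 1757 and 1379 in ZR751shLucif and 1072 and 1100 in ZR751shMLL3. TFF1 had the weakest, of rank 82391 and 17742 in ZR751shLucif and 47584 and 78732 in ZR751shMLL3, and only ZR751shLucif replicate 2 was within the limit.

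Best H3K4me1 ranks were better in both ZR751shMLL3 lists than in both ZR751shLucif lists for GREB1, PDZK1 and CXCL12, beside 23.4% of the genes tested, and worse in both for no gene, beside 13.8%. Which genes these were depended on the window. Within 20 kb they were GREB1, CA12 and IGFBP4, while the cell lines overlapped at PDZK1 and CXCL12 had no value. The share of all genes tested was not counted at 20 kb. GREB1 ranked 18083 and 31142 in ZR751shLucif and 12442 and 4954 in ZR751shMLL3, a difference in mean log10 rank of -0.48 with an exact permutation p of 0.333. CXCL12 ranked 15650 and 48133 and then 8970 and 5107, a difference of -0.61 with the same exact p. The median difference over the 10 genes was -0.05, beside -0.07 over the 10393 genes tested with a peak in every list. A rank within a list does not measure the amount of the mark, since a loss shared by all peaks leaves ranks as they were.

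H3K4me1 beside the shared ERα sites ranged from well ranked to missing. Within 1 kb of the first GREB1 site, H3K4me1 peaks ranked 102760 in ZR751shLucif replicate 1 and 170039 in ZR751shMLL3 replicate 2, and the other lists had none. The second GREB1 site, with the exact element, had peaks of rank 18083 and 34622 in ZR751shLucif and of 22255 in ZR751shMLL3 replicate 2. At the RARA site they ranked 106661 and 108546 in ZR751shLucif, and ZR751shMLL3 had none. The ADCY9 site had peaks of rank 139274 and 112164 in ZR751shLucif and of 54118 and 43655 in ZR751shMLL3. The PGR site was the best marked of those named, at 3747 and 25872 in ZR751shLucif and 12812 and 29875 in ZR751shMLL3. Over all ERα peaks of rank 5000 or better, an H3K4me1 peak of rank 20000 or better lay within 1 kb of 3.98 and 12.7% in ZR751shLucif and of 8.16 and 3.08% in ZR751shMLL3.

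SP1, a factor that binds GC boxes, ranked high near different genes in different lists. A peak of rank 5000 or better lay within 100 kb of 2 and 4 of the 10 genes in ZR751shLucif, beside 28.9 and 34.9% of the genes tested, and of 6 and 2 in ZR751shMLL3, beside 34.2 and 66.5%. No gene had one in all 4 lists, beside 8.54%. PGR had one in 3 lists, of rank 1860 and 555 in ZR751shLucif and 621 in ZR751shMLL3 replicate 1, and its best in ZR751shMLL3 replicate 2 ranked 25988.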

How the data were processed

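RNA-seq and ChIP-seq of ZR751shMLL3 and ZR751shLucif cells were analysed from the deposited files. The deposited RNA-seq values are FPKM per RefSeq gene, which the authors made on hg19 with TopHat2 2.0.13, Cufflinks 2.2.1 and Cuffnorm 2.2.1 per the submitters' processing notes. A row with no values was dropped. For each of 12 ChIP-seq libraries the authors aligned reads with BWA 0.7.5a-r405, marked duplicates with Picard 1.126 and called peaks with SPP against 1 input per cell line. The deposited lists hold the authors' signal and the −log10 of their FDR per peak. They are relaxed, with 156481 to 300000 peaks, and 3.60 to 99.0% of signals tied. The study gives total reads per library, but the files give no reads behind single genes or peaks, and read counts were not used.

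The members and all lists were chosen with earlier results of these data known. The test was limma 3.58.1 (R 4.3.3) on log2(FPKM + 0.5), for genes whose mean on that scale exceeded 1, and p-values were adjusted over all of them by the method of Benjamini and Hochberg, with a threshold of 0.05. Genes beside the members were named by rule: the targeted gene, receptors and pioneer factors, the 4 largest changes each way in the list of 33, and the 5 nearest patterns. A gene that this rule names is not reported here. SGK3 and SLC9A3R1 matched no single row. Peaks were ranked by signal within their list, with ties at the better rank, and assigned to gene bodies ± 100 kb with Python 3.11.15, numpy 2.4.6 and pandas 2.3.3. Gene positions, for 10537 of the genes tested, came from GENCODE on GRCh37, whose chromosomes hold every peak. Figures were drawn with matplotlib 3.10.9. The input libraries were not analysed here.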

Additional observations from a re-analysis of the deposited data

How the results depend on the processing

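With 2 libraries per cell line and assay, and no read counts behind single genes or peaks, changes of the size seen here were not separable from the spread between libraries for most genes. The replicate numbers did not pair the RNA-seq libraries, since same-numbered libraries deviated from their cell line means with a correlation of 0.0374, and the replicate block called 54 genes in place of 1 and none of the 10 estrogen-induced genes. Leaving out 1 library gave 3 to 1994 genes, the latter without ZR751shLucif replicate 2. The other settings (pseudocounts of 1 and 0.1, no filter, a filter at 3, median centring, quantile normalization, 1 surrogate variable, which left 1 residual degree of freedom) called 1 gene each, as did removal of the GC content trend, chosen after seeing the data, which turned GREB1 to -0.047. For all these the cause was not tested.

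Without each library in turn, the log2 fold changes ranged from -2.39 to -0.20 for TFF1, -1.31 to -0.25 for TFF3, -0.27 to 0.40 for GREB1, -0.76 to -0.42 for PGR, -2.52 to -1.24 for PDZK1, -0.074 to 0.53 for CA12, -1.30 to 0.31 for IGFBP4, -0.13 to 1.02 for RARA and 0.51 to 0.59 for ADCY9. The median over the 9 genes ranged from -0.69 to 0.042, and that of the other estrogen-induced genes from -0.02 to 0.16.

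Averaged over the lists, 7.75 genes had a top H3K4me1 peak, or 3 with the limit at 5000. For SP1 it was 3.5, or 0.5 with the limit at 1000, 6.25 at 20000 and 1.75 within 20 kb. The ERα count of 6.25 stayed within 1.5 times under its alternatives. Differences in best H3K4me1 rank (log10) turned with a window of 20 kb to -0.21 for TFF1, 0.25 for TFF3, 0.059 for PGR, -0.44 for CA12, -0.72 for IGFBP4 and 0.013 for ADCY9, and with 100 kb around the start to 0.027 for PGR, -0.54 for IGFBP4 and 0.013 for ADCY9. The ERα difference of CXCL12 turned to 0.019 within 20 kb, and that of PDZK1 rose to 1.62.

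Without each list in turn, differences in best ERα rank ranged from 0.18 to 0.32 for TFF1, 0.28 to 0.35 for TFF3, -0.38 to 0.38 for GREB1, -0.55 to -0.01 for PGR, -0.36 to 1.58 for PDZK1, -0.48 to 0.89 for CA12, -0.39 to 0.34 for IGFBP4, -0.17 to 0.55 for RARA, -0.56 to 0.18 for CXCL12 and 0.16 to 0.60 for ADCY9. Those in best H3K4me1 rank ranged from -0.13 to 0.54 for TFF1, -0.28 to 0.14 for TFF3, -0.68 to -0.28 for GREB1, -0.20 to 0.16 for PGR, -0.21 to -0.10 for PDZK1, -0.17 to 0.96 for CA12, -0.22 to 0.34 for IGFBP4, -0.078 to 0.28 for RARA, -0.85 to -0.36 for CXCL12 and -0.70 to 0.27 for ADCY9.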
